A study of Arabidopsis thaliana with 12 samples.

Results

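At4g15620 is a gene on chromosome 4 of *Arabidopsis thaliana* that RefSeq names CASPL1E2, a member of the Casparian strip membrane domain protein (CASP)-like family. It was chosen by its measured signals on these arrays, as a membrane protein gene whose level stood out in *bri1-5* seedlings, so its own levels are given as a description and without a test. Its probe set, 245501_at, was located through the gene tables that accompany the study, and it is 1 of 22746 probe sets on the array that are not controls. RNA abundance had been measured with Affymetrix ATH1 arrays, on which a probe set of short oligonucleotides reports each transcript, in whole seedlings of 4 genotypes with 3 arrays each. Wild-type seedlings of Ws-2 were compared with those of *phyB-77* (named gul2-1 in the labels), of *bri1-5* and of both mutations combined, *phyB-77 bri1-5*. *phyB-77* carries a premature stop codon in *PHYB*, the gene of the red light photoreceptor phytochrome B, and *bri1-5* is a weak allele of *BRI1*, the gene of the brassinosteroid receptor. All seedlings were 7 days old and had grown in continuous red light, and each mutation was represented by a single allele.

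CASP and CASP-like (CASPL) proteins are small plant membrane proteins that span the membrane several times. The CASP proteins proper, among them CASP1 and CASP5, assemble in the plasma membrane of the root endodermis, where they mark the place at which the Casparian strip, a lignified ring that seals the cell wall, is laid down. The CASPL members are found across land plants, and most of them are less well characterized. BRI1 is a receptor kinase at the cell surface that binds brassinosteroids, the steroid hormones of plants.

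The At4g15620 signal was high in *bri1-5* and lay below the array median in the 3 other genotypes. All signals are log2 values after robust multi-array averaging (RMA), and over the 12 arrays they ran from 2.36 to 14.23. In Ws-2 the At4g15620 signal was 4.30, 4.10 and 4.28 on the 3 arrays. In *phyB-77* it was 4.27, 4.53 and 4.51. In *bri1-5* it was 8.57, 8.73 and 8.62, and in *phyB-77 bri1-5* it was 4.49, 3.97 and 4.18. The 3 *bri1-5* arrays thus lay far above the other 9, whereas the ranges of Ws-2, *phyB-77* and the double mutant overlapped. The means were 4.22 ± 0.26 (SD, n = 3) in *phyB-77 bri1-5*, 4.23 ± 0.11 in Ws-2, 4.44 ± 0.15 in *phyB-77* and 8.64 ± 0.08 in *bri1-5*. In this order, neighbouring genotypes overlapped except at the step from *phyB-77* to *bri1-5*.

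**Figure D1:**
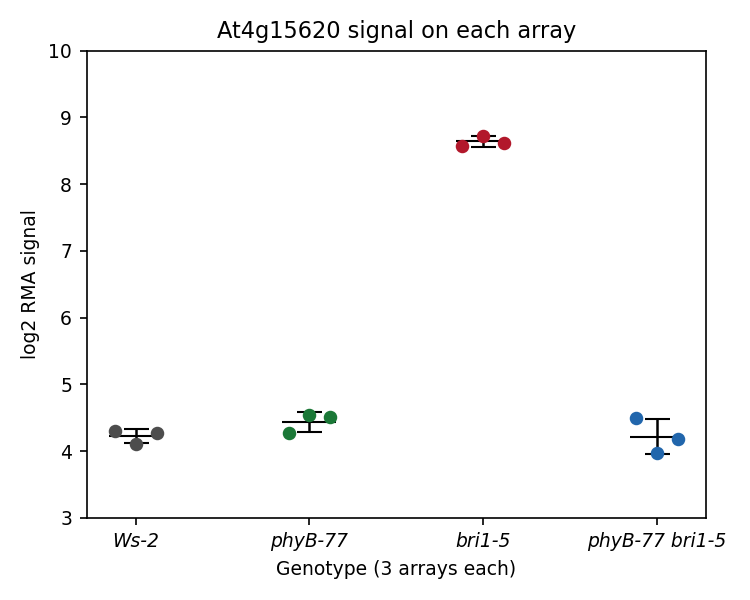
Log2 RMA signal of At4g15620 (vertical axis) on each of the 12 arrays by genotype, with points for arrays and black bars for the mean and SD of 3 arrays. The *bri1-5* arrays sit between 8.57 and 8.73, and the other 9 arrays sit between 3.97 and 4.53.

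Relative to the other probe sets of the same array, the signal lay at the 28.8th to 31.0th percentile in Ws-2, at the 30.2nd to 34.0th in *phyB-77* and at the 27.2nd to 33.7th in the double mutant. In *bri1-5* it lay at the 86.0th to 87.3rd percentile. The position of a probe set within an array also reflects how well its oligonucleotides hybridize, so these percentiles place the signal and not the transcript number. The scatter between the double mutant arrays was wide for a probe set of this study, since only 0.8% of all probe sets had a larger SD in *phyB-77 bri1-5*. The corresponding shares were 42.9% in Ws-2, 34.8% in *phyB-77* and 76.9% in *bri1-5*.

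The difference between *bri1-5* and Ws-2 was 4.41 on the log2 scale (SE 0.12), a 21.3-fold higher signal in *bri1-5*. No measure of background was used here, so this is a fold between signals, and how far the Ws-2 signal lay above background is not known. It was the largest difference in size of all 22746 probe sets in that comparison, in which the next was 4.02 and the median size was 0.16. In the *phyB-77* background the same *bri1-5* allele was accompanied by a difference of -0.22 (SE 0.12), a size that 35.7% of all probe sets exceeded. The double mutant lay below *bri1-5* by a 21.5-fold lower signal, a log2 difference of -4.43 (SE 0.12) that ranked 2nd in size after 5.26. Between *phyB-77* and Ws-2 the difference was 0.21 (SE 0.12), and 35.4% of probe sets differed more. Between the double mutant and Ws-2 it was -0.01 (SE 0.12), a size that 95.3% of probe sets exceeded. The interaction, which is the change from *bri1-5* to the double mutant less the change from Ws-2 to *phyB-77*, was -4.64 (SE 0.17) and was the largest in size of all probe sets, with 3.39 next. These comparisons share arrays and are not independent of each other. The SE values come from a fit of all genotypes together, which pools their spread and moderates it across probe sets. They do not show the wider scatter of the double mutant arrays (SD 0.26). Genotype and plant line coincide here, so other differences between the lines cannot be told apart from the mutations.

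The separation of *bri1-5* from the rest can be given without a model as the gap between the lowest *bri1-5* array and the highest of the other 9 arrays. For At4g15620 this gap was 4.04. The next largest gap of any probe set was 1.80, for At1g47400. All 3 *bri1-5* arrays lay above the other 9 for 2082 probe sets (9.15%), and they lay below them for 1401 (6.16%). A gap of at least 1 was found for 32 of the higher ones, and At4g15620 was the single probe set with a gap of at least 2. In the opposite direction the largest gap was 1.79. The means of Ws-2, *phyB-77* and the double mutant spanned 0.22 for At4g15620, close to the median span of 0.24 over all probe sets.

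**Figure D2:**
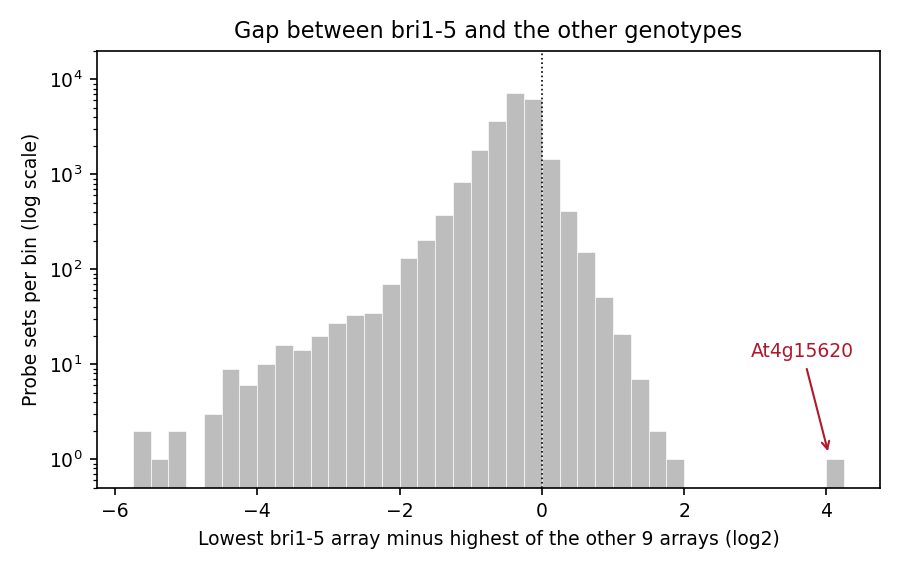
Number of probe sets (vertical axis, log scale) by the gap between the lowest *bri1-5* array and the highest of the other 9 arrays (horizontal axis, log2). Values above 0 mean that all 3 *bri1-5* arrays exceed the rest, and At4g15620 stands alone at 4.04, beyond the next value of 1.80.

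The genes on either side of At4g15620 were examined first. The nearest gene before it is At4g15610 (CASPL1D1), another member of the family, and the nearest after it is At4g15630 (CASPL1E1), for which no probe set was named and which was not analysed here. At4g15610 was 9.92, 9.84 and 9.99 in Ws-2, and 10.24, 10.27 and 10.33 in *phyB-77*. It was 9.32, 9.16 and 9.09 in *bri1-5*, and 9.63, 9.57 and 9.49 in the double mutant. The 4 genotypes did not overlap, and the order was *bri1-5*, the double mutant, Ws-2 and *phyB-77*. At4g15610 fell by 0.73 in *bri1-5* against Ws-2 (SE 0.09, limma adjusted p = 5.9e-06), the opposite direction to At4g15620, and by 0.72 in the double mutant against *phyB-77* (SE 0.09, adjusted p = 8.5e-06). Its interaction was 0.01 (SE 0.13, adjusted p = 0.97).

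Of the 10 nearest named genes on each side, 20 in all, 4 were higher and 1 was lower in *bri1-5* than in Ws-2 at an adjusted p under 0.01. Over all probe sets, 19.1% were called in this comparison (10.5% higher and 8.61% lower, or 9.42% and 10.3% after median centring of the arrays), and the median difference was 0.09 for the neighbours and 0.01 for all. The higher genes were At4g15680, At4g15690 and At4g15700, which follow At4g15620 in the gene order, and At4g15530, which encodes pyruvate orthophosphate dikinase (PPDK), an enzyme that forms phosphoenolpyruvate. At4g15680 was 5.57, 5.58 and 5.27 in Ws-2, 5.33, 5.33 and 5.47 in *phyB-77*, 6.21, 5.98 and 6.78 in *bri1-5*, and 5.62, 5.67 and 5.71 in the double mutant. The *bri1-5* arrays of At4g15680 did not overlap those of the other genotypes, and the difference from Ws-2 was 0.85 (SE 0.15, adjusted p = 0.00023). At4g15700 was dim, at 2.85, 2.95 and 2.80 in Ws-2, 3.01, 2.82 and 2.80 in *phyB-77*, 3.68, 3.29 and 3.36 in *bri1-5*, and 2.96, 3.02 and 3.01 in the double mutant. It too was set apart in *bri1-5*, with a difference from Ws-2 of 0.58 (SE 0.10, adjusted p = 0.00032). At4g15690 rose by 0.52 (SE 0.14, adjusted p = 0.0079) and PPDK by 0.45 (SE 0.11, adjusted p = 0.0035). At4g15690 was dim as well, with means of 3.05 in Ws-2 and 3.57 in *bri1-5*. Both calls were lost when only the 6 arrays of these genotypes were fitted. That of At4g15690 was also lost after each array was centred on its median (0.49, adjusted p = 0.011) and after quantile normalization (adjusted p = 0.011). Array weights (adjusted p = 0.024) and the replicate number as a block (adjusted p = 0.011) removed it too. Leaving out Ws-2 replicate 3, *bri1-5* replicate 1 or *bri1-5* replicate 3 removed the call of PPDK (0.36 to 0.44), and leaving out any of 7 single arrays removed that of At4g15690 (0.32 to 0.53), among them Ws-2 replicate 3 and *bri1-5* replicate 3.

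Of the genes with a named probe set, those nearest to At4g15620 apart from At4g15610 did not pass the test. The difference of *bri1-5* from Ws-2 was 0.01 for At4g15640, the nearest such gene after At4g15620 (SE 0.10, adjusted p = 0.95). It was -0.01 for the pseudogene At4g15590 before At4g15620 (SE 0.09, adjusted p = 0.98). For the other neighbours that did not pass, namely At4g15475, UGT84A1, UGT84A3, UGT84A4, At4g15520, At4g15545, the indole-3-acetate glucosyltransferase IAGLU, At4g15650, At4g15660, At4g15710, At4g15730, At4g15740 and At4g15750, the differences lay between -0.16 and 0.28.

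In the double mutant against *phyB-77*, 0 neighbours were higher and 4 were lower, beside 16.0% of all probe sets called (6.44% higher and 9.51% lower, a split that turned to 8.38% and 7.16% after median centring of the arrays). Besides At4g15610 these were UGT84A1 (-0.62, adjusted p = 6.6e-05), UGT84A3 (-1.15, adjusted p = 1.5e-06) and PPDK (-0.88, adjusted p = 6.9e-06). The UGT84A genes encode glucosyltransferases that act on hydroxycinnamic acids. After median centring of the arrays, 2 neighbours were also called higher in this comparison. The same 3 genes, UGT84A1, UGT84A3 and PPDK, passed the test of the interaction, and 13.8% of all probe sets did so. PPDK was 7.42, 7.38 and 7.12 in Ws-2, 8.63, 8.80 and 8.77 in *phyB-77*, 7.77, 7.56 and 7.93 in *bri1-5*, and 7.85, 7.92 and 7.80 in the double mutant. PPDK was therefore highest in *phyB-77*, a different order from that of At4g15620.

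**Figure D3:**
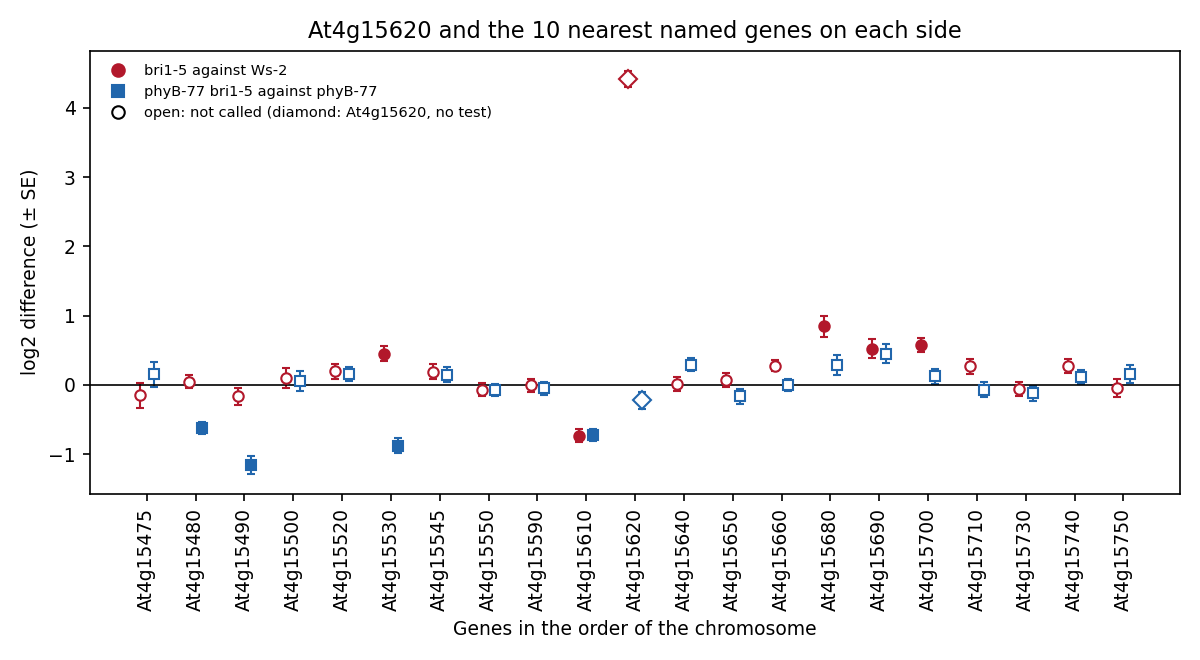
Log2 difference (vertical axis, bars give the SE) of *bri1-5* from Ws-2 (red circles) and of the double mutant from *phyB-77* (blue squares) for At4g15620 (open diamonds, no test) and 20 neighbours in chromosome order. Filled symbols passed an adjusted p of 0.01, and no neighbour exceeds 0.85 in *bri1-5* whereas At4g15620 lies at 4.41.

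The family to which At4g15620 belongs was then compared. Of 38 CASP and CASPL genes considered, 10 had a named probe set, that is At4g15620 and 9 others. All 10 were named through the gene tables of the study. The readable parts of these tables hold genes filtered or ordered by their change in these same arrays. Genes named in this way were likely to be called, so the counts are not independent evidence of a change or of a direction. The shares over all probe sets are given beside the counts but are not a like baseline. In *bri1-5* against Ws-2, 0 of the 9 were higher and 9 were lower, beside 8.61% of all probe sets called lower. Their differences ran from -1.66 to -0.44, with a median of -0.75. Of these 10 genes, At4g15620 was thus the single one with a higher signal in *bri1-5*.

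The 4 genes of CASP proteins proper, CASP1, CASP2, CASP4 and CASP5, fell together. CASP5 was 8.94, 8.88 and 9.19 in Ws-2, 8.53, 8.10 and 8.28 in *phyB-77*, 7.45, 7.54 and 7.04 in *bri1-5*, and 8.14, 8.08 and 8.13 in the double mutant. The *bri1-5* arrays of CASP5 were the lowest, those of Ws-2 were the highest, and the remaining genotypes overlapped. CASP5 fell by 1.66 in *bri1-5* against Ws-2 (SE 0.13, adjusted p = 2.9e-08), whereas the difference between the double mutant and *phyB-77* was -0.18 (SE 0.13, adjusted p = 0.36). CASP1 was 10.63, 10.55 and 10.53 in Ws-2, 9.98, 10.03 and 10.01 in *phyB-77*, 9.73, 9.80 and 9.47 in *bri1-5*, and 9.86, 9.95 and 9.94 in the double mutant. Again Ws-2 was set apart at the top and *bri1-5* at the bottom. CASP1 fell by 0.90 (SE 0.09, adjusted p = 8.4e-07). The differences of *bri1-5* from Ws-2 were -1.05 for CASP2 (adjusted p = 4.4e-06) and -0.67 for CASP4 (adjusted p = 2.2e-05).

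Among the CASP-like genes besides At4g15610, CASPL2B2 fell by 0.88 in *bri1-5* (adjusted p = 0.00041), CASPL1D2 by 0.75 (adjusted p = 4.8e-05), CASPL4B1 by 0.72 (adjusted p = 3.5e-05) and CASPL1B1 by 0.44 (adjusted p = 0.0058). The call of CASPL1B1 was lost when any of 4 single arrays was left out, namely Ws-2 replicate 1 or 2 or *bri1-5* replicate 1 or 3. In the double mutant against *phyB-77*, 2 of the 9 family members were lower and 0 were higher, with a median of -0.18, beside 9.51% of all probe sets called lower and 6.44% called higher. They were CASPL1D1 and CASPL1D2 (-0.62, adjusted p = 0.00045). In *phyB-77* against Ws-2, 2 were higher and 4 were lower, beside 8.56% of all probe sets called higher and 6.77% called lower (6.96% and 8.72% after median centring). After that centring 1 of the 9 was higher and 6 were lower. As deposited, the higher ones were CASPL2B2 (0.83, adjusted p = 0.00087) and CASPL1D1 (0.36, adjusted p = 0.0054). In the double mutant against *bri1-5*, 4 were higher and 0 were lower, also after median centring. Of all probe sets, 19.4% were called in either direction (7.77% higher and 11.6% lower, or 9.41% and 9.61% after median centring). CASPL2B2 had the largest of these differences, at 1.66 (SE 0.16), followed by CASP5 at 0.77 (SE 0.13, adjusted p = 0.00018). The comparisons share arrays, so their counts are set side by side only.

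The interaction passed the test for 4 of the 9, all in the positive direction, the opposite sign to that of At4g15620. Of all probe sets, 4.82% passed in this direction and 8.93% in the negative one, a split that turned to 7.29% and 6.48% after median centring of the arrays. The values were 1.48 for CASP5 (adjusted p = 1.5e-05), 1.03 for CASP2 (adjusted p = 0.00036), 0.81 for CASP1 (adjusted p = 0.00021) and 0.62 for CASPL4B1 (adjusted p = 0.0051). The call of CASPL4B1 was lost when any of 7 single arrays was left out (0.52 to 0.62). For these 4 genes the difference that accompanied *bri1-5* was smaller in the *phyB-77* background than in Ws-2, as with -0.03 for CASP2 and -0.09 for CASP1 in the double mutant against *phyB-77*. The interaction was 0.83 for CASPL2B2 (adjusted p = 0.013) and 0.46 for CASP4 (adjusted p = 0.015), and neither passed as deposited. Both passed after median centring (adjusted p = 0.0045 and 0.003) and after quantile normalization, which gave 6 of the 9, and with array weights. CASPL2B2 also passed with the dim probe sets left out and with a variance trend.

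**Figure D4:**
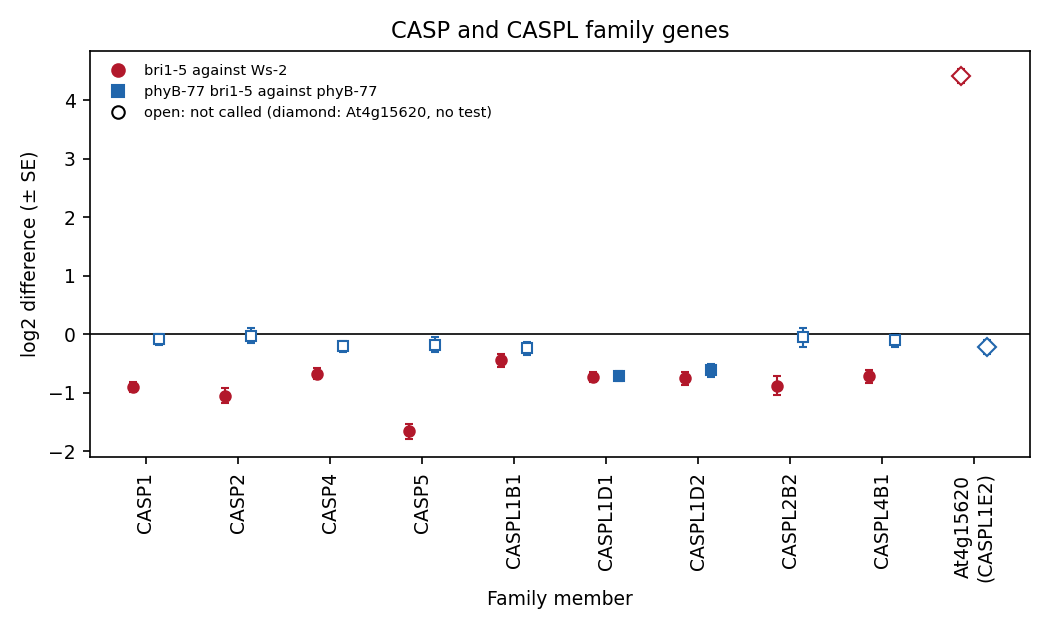
Log2 difference (vertical axis, bars give the SE) of *bri1-5* from Ws-2 (red circles) and of the double mutant from *phyB-77* (blue squares) for 9 CASP and CASPL genes and At4g15620 (open diamonds, no test). Filled symbols passed an adjusted p of 0.01, and all 9 other members lie between -1.66 and -0.44 in *bri1-5* while At4g15620 lies at 4.41.

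Genes that act with the CASP proteins or in suberin formation were measured in part. Of 17 listed barrier genes, 7 had a named probe set, and 5 of these were lower and 1 was higher in *bri1-5* than in Ws-2, with a median difference of -0.59, beside 8.61% of all probe sets called lower and 10.5% called higher. ESB1, a dirigent-type protein needed for the lignin of the Casparian strip, fell by 0.82 (SE 0.10, adjusted p = 4.7e-06). The peroxidase PER64, which acts in the same place, fell by 0.74 (SE 0.10, adjusted p = 1.7e-05). At1g61590, listed as a putative protein kinase, fell by 0.59 (SE 0.09, adjusted p = 6.2e-05). KCS2, an elongase of the very long chain fatty acids used in suberin, fell by 0.64 (SE 0.10, adjusted p = 8.7e-05) and by 1.94 in the double mutant against *phyB-77*. At4g34600 fell by 0.46 (SE 0.10, adjusted p = 0.0024), a call that was lost when only the arrays compared were fitted (adjusted p = 0.014) and without Ws-2 replicate 1 or *bri1-5* replicate 2. The member that rose was the fatty acyl reductase gene At5g22500 (0.61, SE 0.13, adjusted p = 0.0013). Of the 7, 4 had been named through the tables of the study, so their calls are not independent of how they were named. Of the 3 named by the platform annotation, 2 were called lower and 0 higher.

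Markers of other tissues were set beside these values, because whole seedlings hold several organs. The mean log2 signal of 5 root markers was 9.25 to 9.29 in the Ws-2 arrays, 8.15 to 8.33 in *phyB-77*, 9.75 to 10.02 in *bri1-5* and 9.03 to 9.10 in the double mutant, so *bri1-5* was the highest. Of the 5, 3 rose and 1 fell in *bri1-5* against Ws-2, beside 10.5% and 8.61% of all probe sets. Of the 5, 4 had been named through the tables of the study, so their calls are not independent of how they were named. The root peroxidase genes RHS19 (1.66, adjusted p = 1.4e-10) and At1g05250 (1.40, on a probe set that can report several transcripts) and the iron transporter gene IRT1 (0.96) rose. CASP1, which belongs to both lists, fell, and the abundant root glucosidase gene PYK10 differed by 0.05 (adjusted p = 0.74). The 3 measured green tissue markers averaged 13.44 to 13.54 in Ws-2 and 13.45 to 13.51 in *bri1-5*, and 0 of the 3 passed the test. Of 5 seed markers, all named through the tables of the study, 2 were called lower and 0 higher in *bri1-5* against Ws-2. The mean of the 5 was lowest in *bri1-5* (5.95 to 6.24, against 6.45 to 6.58 in Ws-2). It was highest in *phyB-77* (9.94 to 10.02) and the double mutant (9.51 to 9.61). The part of these tissue markers in the levels of At4g15620 and of the CASP genes was not tested. In RNA of whole seedlings, fewer cells of a type and less RNA per cell cannot be told apart.

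Genes with a pattern like that of At4g15620 were sought among the named genes whose means in Ws-2, *phyB-77* and the double mutant lay within 0.5 of each other. They were ranked by the gap between *bri1-5* and the other 9 arrays, a measure over 12 arrays that is a description. A gap of at least 1 was reached by 13 such probe sets including At4g15620, and the 10 genes next to it had gaps of 1.61 to 1.04, all far below 4.04. The first was At5g16030, with a mean of 9.62 in *bri1-5* against 7.54 in Ws-2, 7.49 in *phyB-77* and 7.80 in the double mutant.

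Hormone genes were among these 10. IAA2, an auxin-inducible repressor of the auxin response, had a gap of 1.32 and was 10.99 in *bri1-5*, against 9.51 in Ws-2, 9.28 in *phyB-77* and 9.42 in the double mutant. YUC9, a flavin monooxygenase of auxin biosynthesis, was dim, at 5.31 in *bri1-5* and 3.70 to 3.97 in the other genotypes. CKX1, a cytokinin oxidase that degrades the hormone, was 5.57 in *bri1-5* and 3.74 to 4.04 elsewhere. BHLH039, a transcription factor of the iron deficiency response, was 8.19 in *bri1-5*, and its means in the other genotypes, 6.66 to 6.72, were within 0.06 of each other. At1g11080, a serine carboxypeptidase-like gene, was 5.53 in *bri1-5* and 3.40 to 3.73 elsewhere. The others were At1g61100 (gap 1.23), At1g31920 (gap 1.19), TGH, a protein of RNA processing (gap 1.15), and the wound-induced transcription factor WIND1 (gap 1.08).

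In the opposite direction, 5 genes were low in *bri1-5*, with means in the other genotypes within the same 0.5. At3g15650, listed as a putative lysophospholipase, was 5.45 in *bri1-5* and 7.33 to 7.39 elsewhere, a gap of 1.41. The RING finger ubiquitin ligase gene ATL8 was 5.31 in *bri1-5* and 6.82 to 7.24 elsewhere. XTH17, a xyloglucan endotransglucosylase that remodels cell walls, was 6.34 in *bri1-5* and 7.64 to 8.12 elsewhere. At5g04080 (gap 1.06) and the cytochrome P450 gene CYP71A19 (gap 1.03) completed the 5, the latter on a probe set that can report several transcripts. The ranking depends on the limit set for the other genotypes, since 4 of the 10 higher genes were among the first 10 when no such limit was set. It depends less on the measure, since 8 of 10 were shared when genes were ranked by the difference of *bri1-5* from the mean of the other 9 arrays.

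**Figure D5:**
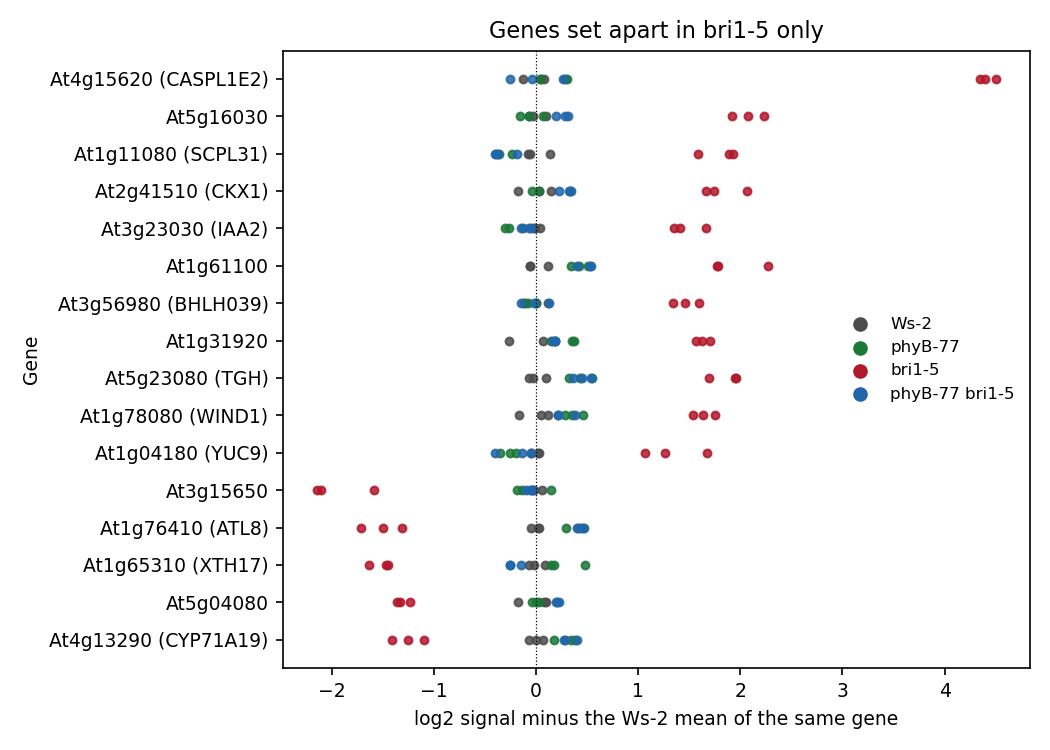
Log2 signal minus the Ws-2 mean of the same gene (horizontal axis) on each of the 12 arrays, coloured by genotype. Rows are At4g15620 and 15 genes ranked by gap within the 0.5 limit, 10 higher and 5 lower in *bri1-5*. The *bri1-5* points of At4g15620 lie at 4.34 to 4.50, and the points of the other 3 genotypes lie between -0.40 and 0.55 in every row.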

How the data were processed

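RNA of 7-day-old seedlings was measured on 12 Affymetrix ATH1 arrays labelled as biological replicates. Whether seedlings were pooled is not given in the sources used here, and a figure legend of the study gives a shorter growth time. The authors deposited log2 signals after RMA, which corrects background, equalizes the arrays and summarizes probe sets. Its software is not given in the sources used here. No column was left unused (0).

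Of 22810 probe sets, 64 controls were left out. The platform annotation named 13367 through RefSeq (assembly TAIR10.1, used for names and gene order only), the gene tables of the study named 1295 more, including that of At4g15620, and 8084 had no name. The probe sets of PHYB and BRI1 were not among the named ones and were not analysed here. Where a gene of the lists had several probe sets, the one with the highest mean was used. In the ranking of like patterns it was the one with the largest gap.

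A linear model with a mean for each genotype was fitted to all 12 arrays (limma 3.58.1, R 4.3.3), and two-sided p-values were Benjamini-Hochberg adjusted over 22746 probe sets. An adjusted p under 0.01 was called, without a fold criterion. One gene of the family is not reported here and is left out of its counts. Genes named are At4g15620, its 20 neighbours, family members called in *bri1-5* or the interaction, the 4 barrier genes with the smallest adjusted p and 15 genes of like pattern. Other barrier genes, single root markers and the genes of the last observations were named after their values were seen. Members and lists were chosen with earlier results of these data known. Tested on simulated data for *bri1-5* against Ws-2 (22746 probe sets), the fit called 97 of 100 probe sets with a 2-fold change and 100 of 100 with a 4-fold change. The simulated noise was independent and held no shift between arrays, so it does not cover the effects of scaling. Calls among the unchanged probe sets are not given here. Array medians were 5.87 to 5.99, and correlations were 0.993 to 0.998 within and 0.969 to 0.988 between genotypes. The number of arrays limits the precision, and p-values measure only the spread between these arrays. Alternatives were other normalizations, filters, thresholds, variance models and names, and each array left out in turn. Figures were drawn with matplotlib 3.10.9 in Python 3.11.15. The authors' fold changes and p-values were not used.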

Additional observations from a re-analysis of the deposited data

Results flagged for a closer look

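The effect of *phyB-77* in *bri1-5* differed from its effect in Ws-2, by the limma test of the interaction, for 13 measured genes of the family, neighbour, barrier and root marker lists. These were 4 of 9 family genes, 3 of 20 neighbours, 4 of 7 barrier genes and 3 of 5 root markers, with CASP1 in both the first list and the last. Of all probe sets, 13.8% passed. The interaction also passed for 3 of 3 green tissue markers and 2 of 5 seed markers. The limits on genes named through the tables of the study hold here too. At4g15620 was not tested. The interaction was positive for CASP5 (1.48, adjusted p = 1.5e-05), CASP2 (1.03, adjusted p = 0.00036), CASP1 (0.81, adjusted p = 0.00021) and CASPL4B1 (0.62, adjusted p = 0.0051). It was also positive for PER64 (0.71, adjusted p = 0.0012) and At1g61590 (0.81, adjusted p = 0.00016), for the root peroxidase gene At1g05250 (1.14, adjusted p = 0.00027) and for At4g34600 (0.61, adjusted p = 0.0055). The call of At4g34600 was lost when any of 9 single arrays was left out, and that of CASPL4B1 when any of 7 was.

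It was negative for PPDK (-1.32, adjusted p = 5.3e-06), KCS2 (-1.30, adjusted p = 3.8e-06), the iron transporter gene IRT1 (-1.14, adjusted p = 0.00029), UGT84A3 (-0.99, adjusted p = 0.00042) and UGT84A1 (-0.67, adjusted p = 0.0011). Outlying arrays were not tested for, since each genotype had 3.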

How the results depend on the processing

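With single arrays left out, the At4g15620 difference of *bri1-5* from Ws-2 was 4.35 to 4.45, the gap was 4.04 to 4.09, and the difference of the double mutant from *phyB-77* was -0.36 to -0.10. Each named gene, comparison and setting gave 1 value, so the same call was counted once per setting. Of 309 values called as reported, 302 were kept, 7 were lost and none turned to the opposite direction under other settings. Another 30 were gained among 571 values not called. The settings include the threshold of 0.05, under which a call cannot be lost. With 1 array left out, 400 of 432 such values were kept and 32 lost, and 9 were gained among 828 not called. The 32 losses fell on CASPL4B1 and At4g34600 in the interaction, and on PPDK, At4g15690, At4g34600 and CASPL1B1 in *bri1-5* against Ws-2. At an adjusted p under 0.05, 5716 probe sets were called in the double mutant against *phyB-77* (3628 at 0.01), 5345 in *phyB-77* against Ws-2 (3487), 6625 in the double mutant against *bri1-5* (4414) and 5140 in the interaction (3128). The neighbours called in *bri1-5* fell from 5 to 3 with the 40% dimmest probe sets left out or only the arrays compared, and were 3 to 5 with single arrays left out (3 without Ws-2 replicate 3 or *bri1-5* replicate 3). With annotation names alone the neighbours called were 4, and the family had no member. Scaling moved the higher share of calls: median centring gave 47.8% against 55.0% in *bri1-5* against Ws-2, 53.9% against 40.4% in the double mutant against *phyB-77*, 44.4% against 55.8% in *phyB-77* against Ws-2, and 53.0% against 35.1% in the interaction. The cause was not tested.

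Arrays with the same replicate number share only the number: over 18 such pairs the correlation of deviations was -0.19 to 0.08, and 2 of 12 arrays correlated best with their own number. With the replicate number as a block, 4248 probe sets were called in *bri1-5* against Ws-2 in place of 4352, and of the neighbours 4 in place of 5. The dim signals of At4g15620 outside *bri1-5* limit how finely those 3 genotypes can be ordered.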

Other observations

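Genes high in *bri1-5* but unequal among the other genotypes fell outside the ranking above, and these were chosen after their values were seen. They were picked by hand around the theme of iron and not by rank. A gap of at least 1 was found for 32 higher probe sets, and 13 of these met the limit of 0.5. The genes given here are thus only some of those outside it. At1g47400 had the gap nearest to that of At4g15620 (1.80), with means of 9.19 in *bri1-5*, 7.31 in Ws-2, 5.97 in *phyB-77* and 6.67 in the double mutant. At1g06830, listed as a putative glutaredoxin, followed with a gap of 1.74 and means of 7.74, 5.74, 4.82 and 5.77 in the same order. ORG1 had a gap of 1.49 and At5g05250 one of 1.40. The iron transporter gene IRT1, also a root marker, had a smaller gap of 0.52. IRT1 was 8.0 in *bri1-5*, 7.04 in Ws-2, 6.22 in *phyB-77* and 6.04 in the double mutant.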
